A study of Mus musculus with 2 samples.

Results

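The heat shock proteins described here are 10 chaperones of the cytosol and the mitochondria: Hspb1, Hspb8, Hspa1a, Hspa1b, Hspa8, Hsph1, Dnajb1, Hsp90aa1, Hspd1 and Hspe1. They were chosen by name, with earlier results of these data known. Each was read from every probe set that the platform annotation assigns to that symbol alone. This gave 25 of the 34945 probe sets with a single symbol and 10 of the 18193 genes measured. Cortical tissue of P4H-TM KO mice and of their WT littermates was compared on Affymetrix mouse arrays. Both groups were naive C57BL/6J males aged 2.5 months. P4H-TM, encoded by P4htm, is a transmembrane prolyl 4-hydroxylase of the ER, and no tissue-specific driver of the knockout is named in the sources used here. RNA from 4 animals of a genotype was mixed before hybridization, so there was 1 array for P4H-TM KO and 1 for WT, and no difference has a replicate check or a p-value. In bulk tissue, fewer cells of a type and less RNA per cell cannot be told apart.

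Heat shock proteins bind unfolded proteins and keep them from aggregating. HSPA proteins (the HSP70 family) fold clients in cycles of ATP hydrolysis, with J-domain proteins such as Dnajb1 delivering the clients and Hsph1 (HSP110) exchanging the nucleotide. Hsp90aa1 acts later on kinases and receptors, the small proteins Hspb1 and Hspb8 hold clients without ATP, and Hspd1 with its lid Hspe1 forms the folding chamber of mitochondria. On heat or other protein damage the transcription factor HSF1 binds heat shock elements, alternating repeats of GAA and TTC, and switches on the inducible members. Here Hspa1a, Hspa1b, Hspb1, Dnajb1, Hsph1 and Hsp90aa1 were taken as inducible, and Hspa8, Hspb8, Hspd1 and Hspe1 as constitutive, although Hspb8, Hspd1 and Hspe1 can also be raised by stress.

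The upstream sequences show what the inducible and constitutive members share at the level of DNA. The choice of members used no sequences. The inducible ones were, however, grouped as genes known for induction by HSF1, which binds heat shock elements. RefSeq windows of 250 bases before the start (GRCm38.p6) were used for 8 members, all except Hspa8 and Hsp90aa1. The windows of 3 genes are printed in full because they belong to the member with the highest difference and to the nearly identical HSP70 pair. Capitals mark heat shock elements of 2 units, GAANNTTC or TTCNNGAA, each of which reads the same on both strands. They lie at chr5:135887669-135887918 on the plus strand for Hspb1, at chr17:34972157-34972406 on the minus strand for Hspa1a and at chr17:34959239-34959488 on the minus strand for Hspa1b.
Hspb1: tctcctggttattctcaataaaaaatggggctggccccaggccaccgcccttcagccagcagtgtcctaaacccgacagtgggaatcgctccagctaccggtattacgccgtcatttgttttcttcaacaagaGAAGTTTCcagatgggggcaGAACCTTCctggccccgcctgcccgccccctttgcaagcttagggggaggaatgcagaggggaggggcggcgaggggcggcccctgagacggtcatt
Hspa1a: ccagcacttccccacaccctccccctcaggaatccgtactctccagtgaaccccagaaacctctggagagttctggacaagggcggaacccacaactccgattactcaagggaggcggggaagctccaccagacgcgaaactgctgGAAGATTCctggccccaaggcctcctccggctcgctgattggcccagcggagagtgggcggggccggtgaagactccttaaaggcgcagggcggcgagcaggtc
Hspa1b: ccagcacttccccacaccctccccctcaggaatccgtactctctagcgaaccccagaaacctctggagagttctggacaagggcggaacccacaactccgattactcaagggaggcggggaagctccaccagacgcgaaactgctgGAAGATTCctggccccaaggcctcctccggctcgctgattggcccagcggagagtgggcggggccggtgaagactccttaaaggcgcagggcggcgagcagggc

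The Hspb1 window held the element at positions −117 to −110 and −97 to −90, counted back from the start. The Hspa1a and Hspa1b windows each held it at −104 to −97, and their 250 bases were identical at 247 positions (98.8%). The mitochondrial partners Hspd1 and Hspe1 are transcribed in opposite directions from a shared promoter, and a stretch of it is shown because it carried the longest run of units among the members' windows. It lies at chr1:55088053-55088082, −95 to −66 from the Hspe1 start on the plus strand, and its capitals mark 3 overlapping matches to the 2-unit element.
Hspe1 and Hspd1: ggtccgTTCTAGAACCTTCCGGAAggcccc

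A 2-unit element was found upstream of 6 of the 8 members with a window: 4 of 5 inducible ones (Hspa1a, Hspa1b, Hspb1 and Hsph1) and 2 of 3 constitutive ones (Hspd1 and Hspe1). These 6 are not independent cases, since the Hspa1a and Hspa1b windows are nearly identical and Hspd1 and Hspe1 share their stretch. In the RefSeq set 12.8% of all 32851 windows held a 2-unit element, and of 27025 genes 14.5%. An element of 3 alternating units was found in 2 members, Hspd1 and Hspe1, against 0.514% of genes. Dnajb1, Hsph1 and Hspd1 each have 2 annotated starts, and a match before either was counted; the shared stretch lies before only 1 of the Hspd1 starts. The elements of Hspa1a, Hspa1b and Hspb1 lay outside annotated genes, that of Hsph1 inside Hsph1 and the shared stretch inside Hspd1. Dnajb1 and Hspb8 had neither form in these windows. The TATA box TATAAA was in 0 of the 8 members, against 14.3% of genes. The core of the hypoxia response element, ACGTG on either strand, was in the windows of 3 members, Dnajb1, Hsph1 and Hspd1, against 18.5% of genes. All of these core matches lay inside an annotated gene, for Dnajb1 inside the gene itself before its downstream start, for Hsph1 inside Hsph1 and for Hspd1 inside Hspe1. A match describes the letters and not a bound site.

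**Figure D1:**
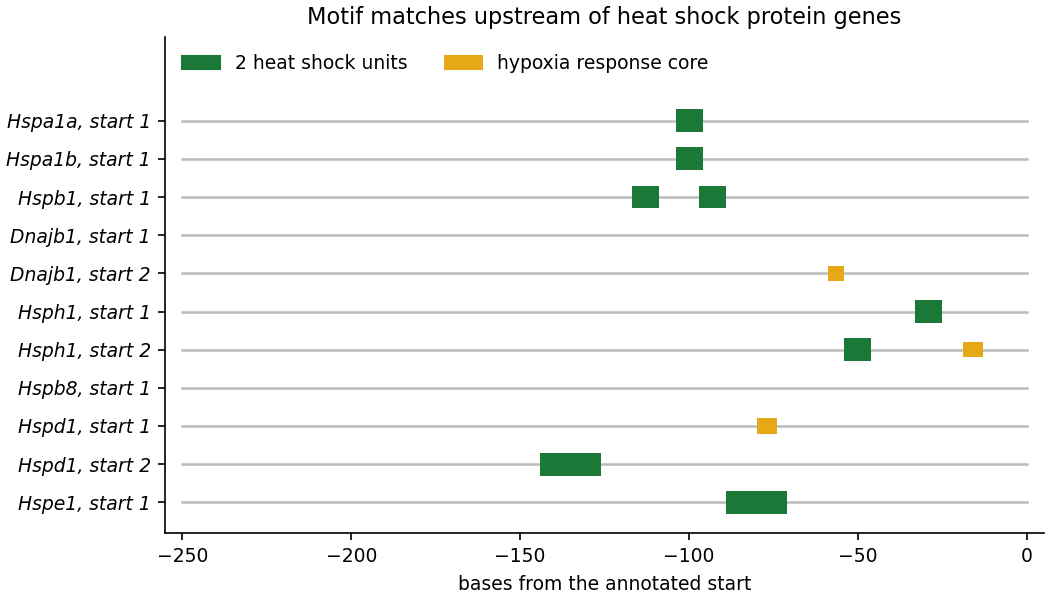
Positions of sequence matches in the 250 bases before each annotated start of the 8 members with a window, in bases from the start; green bars mark 2-unit heat shock elements, yellow bars the hypoxia response core, and overlapping matches run together. The elements of Hspa1a and Hspa1b lie at the same place, Hspb1 has 2 separate ones, and Hspd1 (start 2) and Hspe1 each have a run of overlapping matches.

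P4htm itself had a log2 value of 9.10 in P4H-TM KO and 11.05 in WT on its brighter probe set, 3.86-fold lower in P4H-TM KO. Its other probe set had 8.07 in P4H-TM KO and 9.71 in WT. Cortical neuron markers were present on both arrays, with Slc17a7, the glutamate transporter of cortical excitatory neurons, at 9.04 in P4H-TM KO and 9.01 in WT. The array medians were 6.39 for P4H-TM KO and 6.38 for WT. Over all genes the share higher in P4H-TM KO by 1.5-fold or more was 0.610%, the share lower by as much was 0.148%, and 46.0% were higher at any size. Above a signal of 6.385, the median of all probe sets, these shares were 0.631%, 0.0512% and 50.1% of 11730 genes. Of these brighter genes 95% lay between −0.23 and 0.28 on the log2 scale. Each gene is given by its brightest probe set unless stated, and probe sets of the same gene differed from each other by a pooled SD of 0.101 in their log2 differences over 5101 genes. All 10 members were above the signal of 6.385.

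None of the 10 heat shock genes reached 1.5-fold in either direction between P4H-TM KO and WT, where 0.631% of genes above the signal floor were higher and 0.0512% lower by that much. A higher value in P4H-TM KO was found for 8 members, beside 50.1% of genes above the floor, a lower value for Hspa1a, and the same value for Hspe1. The differences ran from −0.08 to 0.56 with a median of 0.055, beside a median of 0.01 over all genes above the signal floor. Hspb1 had the highest difference, Dnajb1 the next and Hspb8 the one after it. The other 7 members lay between −0.08 and 0.10, about the size of the spread between probe sets of a gene.

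**Figure D2:**
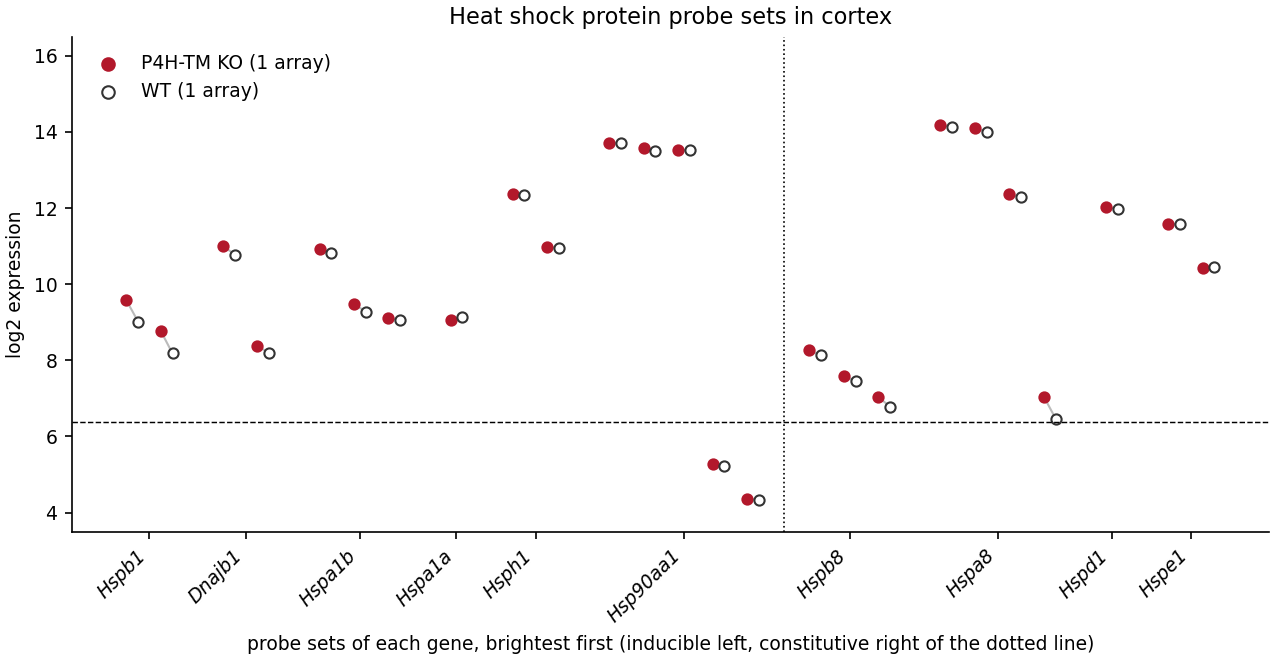
Log2 RMA value (vertical axis) of each of the 25 member probe sets, brightest first within a gene, with the P4H-TM KO array (filled) left of the WT array (open) and inducible members left of the dotted line; the dashed line is the signal floor of 6.385. The widest gaps are those of both Hspb1 probe sets and of the dimmest of Hspa8, at 7.04 in P4H-TM KO and 6.47 in WT, and every other probe set differs by 0.26 or less.

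Hspb1 encodes the small heat shock protein HSP27 (HSP25 in mice), which holds damaged clients and stabilizes actin, and in the brain it is known from vessel walls and reactive astrocytes. Its probe set 1422943_a_at, which covers several transcripts of the gene, had 9.58 in P4H-TM KO and 9.02 in WT, a difference of 0.56 or 1.47-fold. The other, 1425964_x_at, which may match further sequences, had 8.77 in P4H-TM KO and 8.18 in WT, 0.59 or 1.51-fold. Both probe sets were therefore higher in P4H-TM KO by about the same amount, on either side of the 1.5-fold mark. At 0.56 the gene ranked 82 of 11730 above the signal floor, and 0.699% of those genes had a difference at least as high. Among the 2507 genes within 0.5 log2 units of its signal, 12 had a difference at least as high (0.479%). The difference was 5.53 times the pooled SD between probe sets of a gene. This SD is not an error of the difference between genotypes.

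Dnajb1 (HSP40), the J-domain protein that stimulates the ATPase of HSP70, had 11.01 in P4H-TM KO and 10.78 in WT, 1.17-fold higher in P4H-TM KO. Its other probe set had 8.37 in P4H-TM KO and 8.20 in WT. Both were thus slightly higher in P4H-TM KO, and 4.20% of genes above the signal floor had a difference of at least 0.23. Among the 1444 genes within 0.5 log2 units of its signal the share was 1.39%.

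Hspa1a and Hspa1b encode the stress-inducible HSP70 and have almost the same sequence, so their probe sets may not separate them and their values are uncertain. The single probe set of Hspa1a had 9.06 in P4H-TM KO and 9.14 in WT. The brightest probe set of Hspa1b had 10.93 in P4H-TM KO and 10.83 in WT. Its other probe sets had 9.48 in P4H-TM KO and 9.28 in WT, and 9.11 in P4H-TM KO and 9.07 in WT. The Hspa1b probe sets were higher in P4H-TM KO by 0.04 to 0.20, while that of Hspa1a was lower by 0.08, so the inducible HSP70 had no common direction over its 4 probe sets.

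Hsph1, the HSP110 that reloads HSP70 with ATP, had 12.37 in P4H-TM KO and 12.35 in WT, and 10.97 in P4H-TM KO and 10.96 in WT on its other probe set. Hsp90aa1, the inducible HSP90, had 13.72 in P4H-TM KO and 13.71 in WT on its brightest probe set. Its other bright probe sets had 13.57 in P4H-TM KO and 13.50 in WT, and 13.52 in P4H-TM KO and 13.53 in WT. The arrays thus gave nearly the same value for both genes on every bright probe set. The remaining 2 probe sets of Hsp90aa1 were below the signal floor and were each higher by 0.04 in P4H-TM KO.

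Hspa8 (HSC70), the constitutive HSP70 that also uncoats clathrin vesicles at synapses, had 14.18 in P4H-TM KO and 14.14 in WT on its brightest probe set. Another bright one had 14.09 in P4H-TM KO and 14.01 in WT, and the next 12.36 in P4H-TM KO and 12.30 in WT. A dim probe set, 1431182_at, stood apart with 7.04 in P4H-TM KO and 6.47 in WT, 1.48-fold higher in P4H-TM KO. It differed by 0.57 where the bright probe sets of the gene differed by 0.04 to 0.08, and which transcript it reads was not examined.

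Hspb8, the small heat shock protein that works with Bag3 in chaperone-assisted autophagy, had 8.26 in P4H-TM KO and 8.13 in WT. Its dimmer probe sets had 7.60 in P4H-TM KO and 7.45 in WT, and 7.04 in P4H-TM KO and 6.78 in WT. All 3 were higher in P4H-TM KO, by 0.13 to 0.26. Among the 2395 genes within 0.5 log2 units of the signal of Hspb8, 17.6% had a difference of at least 0.13.

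The mitochondrial chaperonin Hspd1 (HSP60) had 12.04 in P4H-TM KO and 11.97 in WT on its single probe set. Its lid Hspe1 (HSP10) had 11.59 in P4H-TM KO and 11.59 in WT. A dimmer probe set of Hspe1 had 10.42 in P4H-TM KO and 10.44 in WT. The pair, which shares a promoter, thus had differences within 0.07 of 0 on all 3 probe sets.

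**Figure D3:**
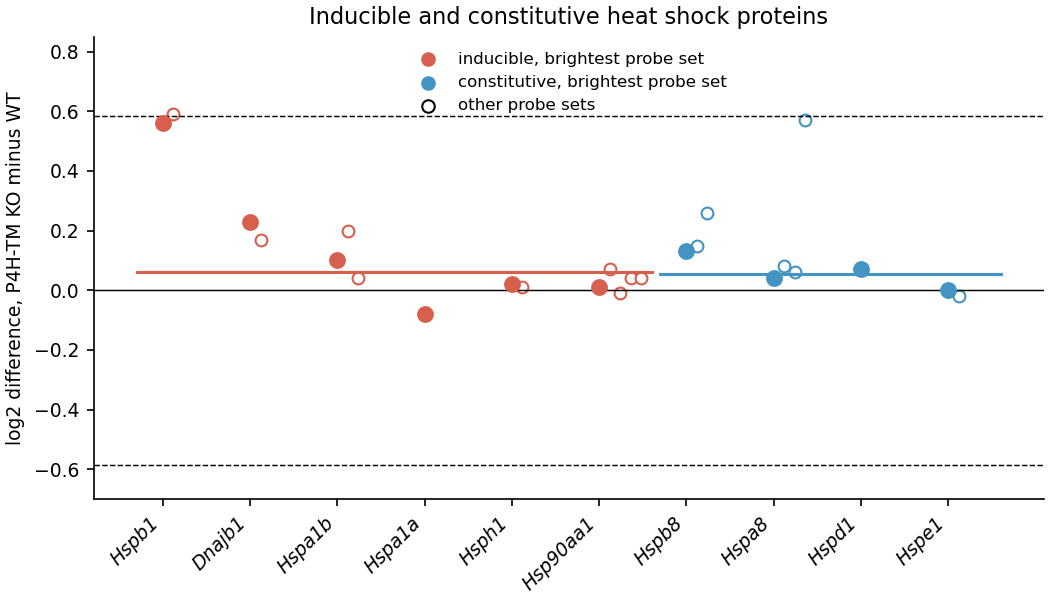
Difference of P4H-TM KO minus WT, in log2 units, for the 25 member probe sets, inducible (red) left of constitutive (blue); filled points are the brightest probe set of a gene, open points the others, coloured lines the group medians and dashed lines 1.5-fold. Of the probe sets 21 lie above 0, 3 below and 1 at 0, only 1 of Hspb1 passes 1.5-fold, and the medians of 0.06 and 0.055 nearly coincide. Several probe sets can read the same gene, and the share of all probe sets above 0 was not counted.

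**Figure D4:**
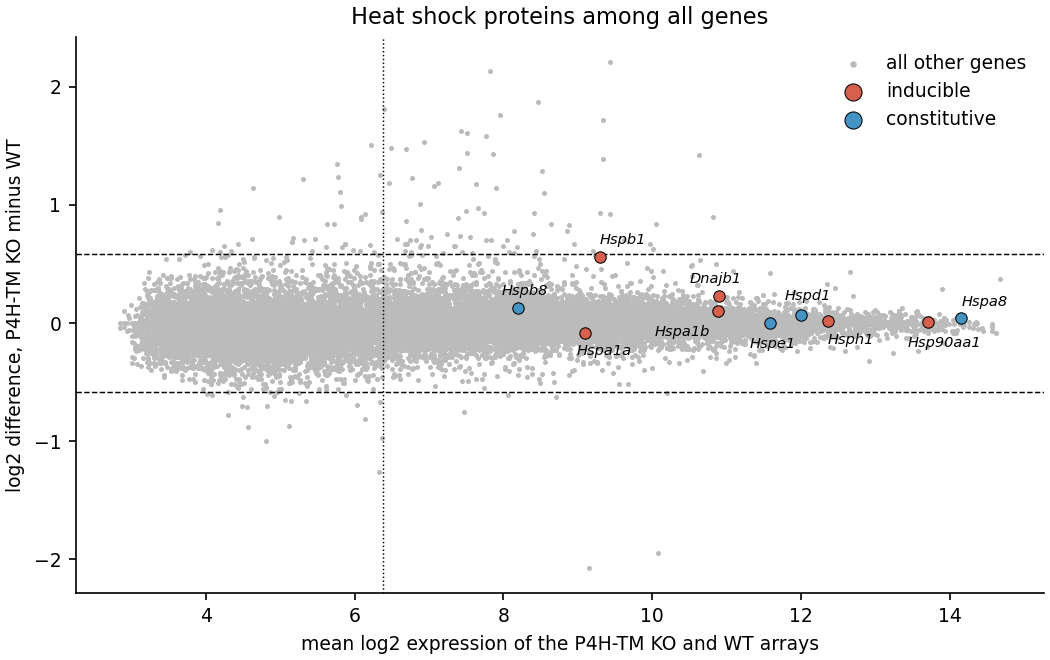
Difference of P4H-TM KO minus WT, in log2 units, against the mean log2 signal of both arrays for 18193 genes (grey), with inducible members in red and constitutive ones in blue; dashed lines mark 1.5-fold and the dotted line the signal floor. Hspb1 lies at the upper edge of the genes of its signal, and the bright members Hspa8 and Hsp90aa1 lie close to 0, where the genes of like signal also spread little.

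The medians of the inducible and constitutive members were nearly equal. Of the 6 inducible members 5 were higher in P4H-TM KO and 1 was lower, with a median of 0.06 and a range of −0.08 to 0.56. Of the 4 constitutive members 3 were higher and 1 was equal, with a median of 0.055 and a range of 0.00 to 0.13. The difference between the medians was 0.005, under the last decimal of the values. The group means were 0.14 for the inducible and 0.06 for the constitutive members, and without Hspb1 the inducible mean was 0.056 and the median 0.02. Without Hspb1 the inducible mean was thus no higher than the constitutive one. The size and sign of the contrast also depended on the grouping and on how probe sets were combined. With Hspb8 counted as inducible, or with Hsp90aa1 counted as constitutive, the inducible minus constitutive difference of medians was 0.06. When the probe sets of each gene were averaged, it was −0.0533, since the dim probe set brought Hspa8 to 0.188.

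The chaperones around the members were given by lists of their families. The 7 family lists covered other chaperones, co-chaperones and proteases, mostly of the cytosol and the mitochondria. Of their 84 genes 81 were measured, 47 were higher and 29 lower in P4H-TM KO, 0 passed 1.5-fold, and the median was 0.02. Beside this and the list counts below, 46.0% of all genes and 50.1% of those above the signal floor were higher at any size. The J-domain partners were higher in 11 of 15 cases with a median of 0.03, and the HSP90 co-chaperones in 10 of 13 with a median of 0.07. Chordc1, a heat-induced partner of HSP90, had 11.01 in P4H-TM KO and 10.77 in WT. The other HSP70 and HSP110 genes were higher in 5 of 8 cases with a median of 0.03. The nucleotide exchange factors of HSP70 were higher in 5 of 8 cases with a median of 0.05. Bag3, the partner of Hspb8, had 8.03 in P4H-TM KO and 7.81 in WT. The direction of Bag3 and Hspb8 was the same, with differences of 0.22 and 0.13.

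Of the other small heat shock proteins 4 of 8 were higher and 4 lower, and only 2 were above the signal floor. Cryab, which forms mixed oligomers with Hspb1, had 12.11 in P4H-TM KO and 12.24 in WT, and Hspb6 had 6.67 in P4H-TM KO and 6.47 in WT. On its brightest probe set Cryab thus had the opposite sign to Hspb1, while its 3 probe sets ranged from −0.13 to 0.05. In the mitochondria 8 of 14 other chaperones and proteases were higher and 5 lower, with a median of 0.02. Hspa9, the mitochondrial HSP70, had 10.94 in P4H-TM KO and 10.92 in WT, although its probe sets went down to −0.41. The TRiC and prefoldin subunits, the chaperonin of the cytosol and its feeder, were higher in 4 of 15 cases and lower in 9, with a median of −0.02.

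Heat-induced genes outside the members were higher in P4H-TM KO in 11 of 14 cases, lower in 3, and had a median of 0.09. The highest was Serpinh1 (HSP47), the collagen chaperone of the ER, with 8.74 in P4H-TM KO and 8.24 in WT. Except for Serpinh1 and Hmox1, the measured genes of this list were also counted in the family lists above. Of the heat shock factors and their regulators 2 were higher and 3 lower. Above the signal floor were 2, Hsbp1 and Hsf2, with differences of 0.09 and 0.01. The other probe set of Hsf2 had a difference of −0.23. Hsf1 was not analysed here.

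The list of ER folding genes held 8 ER relatives of the members (the HSP70, HSP90, HSP110 and J-domain families) and 4 genes of other families, Sdf2l1, Creld2, Pdia4 and Calr. Many such genes are known targets of the unfolded protein response. Of the 8 relatives 6 were higher in P4H-TM KO, with a median of 0.145, beside 0.055 for the members. The other 4 genes were all higher on their brightest probe sets, with a median of 0.385, and the whole list of 12 had a median of 0.195. This split was made after the values were seen. The 2 probe sets of Pdia4 had differences of −0.05 and 0.33. Hspa5 (BiP), the ER counterpart of Hspa8, had 12.87 in P4H-TM KO and 12.44 in WT. Its probe sets ranged from 0.04 to 0.52. Hsp90b1 (GRP94), the counterpart of Hsp90aa1, had 12.39 in P4H-TM KO and 12.24 in WT. The relatives with lower values were Dnajb9, at 10.87 in P4H-TM KO and 10.97 in WT, and Dnajc1, at 8.51 in P4H-TM KO and 8.59 in WT. The 6 probe sets of Dnajc1 ranged from −0.09 to 0.30. Sdf2l1, which works with BiP, had 9.08 in P4H-TM KO and 8.54 in WT. None of the 12 passed 1.5-fold, and with 1 array per genotype the difference between the lists could not be tested.

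Markers of other cell types also differed between the arrays. All 13 measured choroid plexus markers, 12 of them above the signal floor, were higher in P4H-TM KO. Their differences had a median of 1.47, and their median log2 value was 8.88 in P4H-TM KO and 7.08 in WT. Of the meninges markers 14 of 15 were higher and 14 of 15 were above the signal floor, with a median of 0.40, and their median log2 value was 8.12 in P4H-TM KO and 7.67 in WT. Markers of mural cells, the contractile cells of vessels, where Hspb1 is also expressed, were higher in 8 of 12 cases. They were lower in 4, with a median of 0.075 over the list. Acta2, the highest, had 10.32 in P4H-TM KO and 9.69 in WT, with differences of 0.07 to 0.63 over its probe sets. The lowest were Abcc9, at 7.11 in P4H-TM KO and 7.23 in WT, and Cspg4, at 7.77 in P4H-TM KO and 7.88 in WT. Endothelial markers were higher in 9 of 11 cases with a median of 0.09, whereas astrocyte markers were higher in 2 of 12 with a median of −0.06. Oligodendrocyte markers were higher in 0 of 11 cases with a median of −0.25, cortical neuron markers in 5 of 11 with a median of −0.02 and microglia markers in 4 of 11 with a median of −0.03. The linear signal summed over the choroid plexus list was 36461 in P4H-TM KO and 25125 in WT. Over the meninges list it was 25318 in P4H-TM KO and 19063 in WT. A single gene made up most of each sum. For choroid plexus it was Ttr, at 14.86 in P4H-TM KO and 14.49 in WT, which had the lowest difference of its list, 0.37. For meninges it was Ptgds, at 14.04 in P4H-TM KO and 13.75 in WT. All 18 immediate early genes, rapid responders to firing of neurons, were higher in P4H-TM KO on their brightest probe sets, with a median of 0.28. Of these 16 were above the signal floor, and Egr2, with the highest difference of 1.35, was below it. The probe sets of Homer1, at 0.01 on its brightest, ranged from −0.55 to 0.35. Those of Nr4a3 ranged from −0.13 to 0.20 and those of Nr4a2 from −0.04 to 0.45. The part of these cell types and of the immediate early genes in the differences of Hspb1, Dnajb1 and the ER folding genes was not tested.

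**Figure D5:**
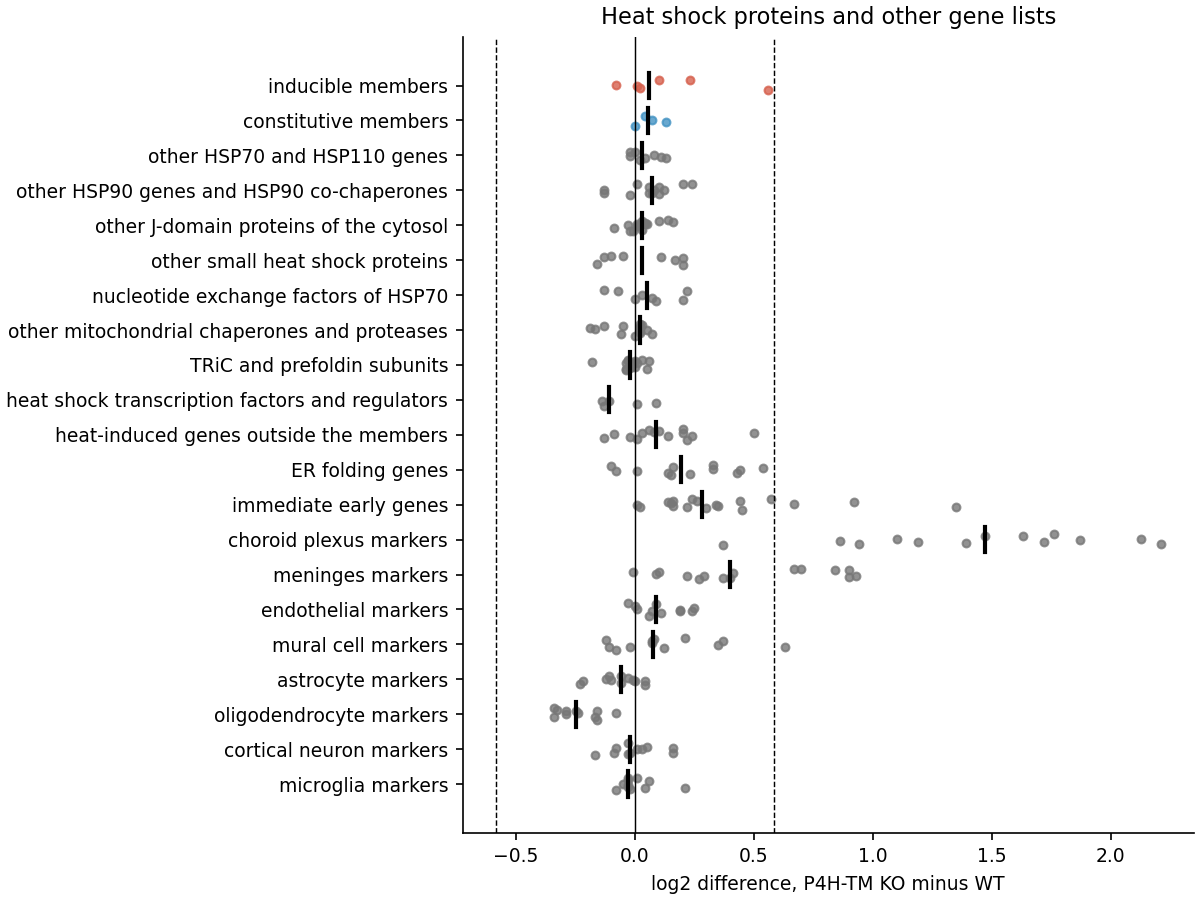
Difference of P4H-TM KO minus WT, in log2 units, for each measured gene of the members, the other chaperone lists, the immediate early genes and the cell type markers (points), with the list median (black bar) and 1.5-fold (dashed lines). The medians of the inducible and constitutive members, 0.06 and 0.055, lie near those of the other, mostly cytosolic, chaperone families, and the choroid plexus markers have the highest median, 1.47.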

How the data were processed

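Cortical RNA was hybridized to Affymetrix mouse arrays, 1 per genotype. Scans were quantified by the authors in the GeneChip Operating System, followed by normalization in GenePattern. RMA is named in the submitters' processing notes, and its version is not given in the sources used here. The deposited values are log2 values to 2 decimals. RMA forces like distributions on both arrays, so a shift of all genes would be removed. Probe sets with 1 symbol in the platform annotation were used, each gene took its brightest, and differences are P4H-TM KO minus WT. The number of arrays limits the precision, and rounding makes medians near 0 coarse. The threshold was 1.5-fold, with no test, since pooled RNA on 1 array gives no spread between animals. The spread between probe sets of a gene served as the yardstick for single genes, and divided by the root of the number of members for medians. This yardstick comes from probe sets that read the same RNA, and its use for medians takes the members as independent. It is not an error of the difference between genotypes. Gene lists were written from general knowledge, and members and lists were chosen with earlier results of these data known. Named genes were all members, P4htm and, from each list, genes past 1.5-fold or among the 2 highest and 2 lowest above the signal floor (the median of all probe sets). Further genes were named after their values were seen (Slc17a7, Hspa9, Hspa5, Hsp90b1, Pdia4, Calr, Nr4a2, Nr4a3, Ptgds). Promoters came from RefSeq, GRCm38.p6. Alternatives were other ways to combine probe sets, centring, removal of the loess trend (span 0.3), other thresholds, summaries and groups. The scripts were tested on simulated data. Computation used statsmodels 0.14.6, numpy 2.4.6 and pandas 2.3.3 under Python 3.11.15, and plots used matplotlib 3.10.9.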

Additional observations from a re-analysis of the deposited data

How the results depend on the processing

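No paired analysis was possible because there is 1 array per genotype. The inducible minus constitutive difference of medians, 0.005, was −0.0533 with probe sets averaged, −0.005 without the _x_at and _s_at probe sets, which may read other genes, −0.00202 with the loess trend removed, 0.08 with means in place of medians, 0.06 with Hspb8 counted as inducible and 0.06 with Hsp90aa1 counted as constitutive. With alternatives chosen after seeing the data it was −0.035 without Hspb1 and −0.004 with means and without Hspb1. The sign of this difference is therefore not fixed by these values. The median of all members was 0.0917 and that of the constitutive members 0.125 with probe sets averaged. With means in place of medians, the value was 0.108 for all members and 0.14 for the inducible ones. The number of members past the threshold in P4H-TM KO was 1 (Hspb1) at the lower log2 threshold of 0.32 and, chosen after seeing the data, 1 (Hspb1) when any probe set could count. It was 0 under every other alternative run for it, and the number past it downward was 0 in all. The share of all genes past the threshold was not counted at 0.32 or when any probe set could count. For scale, 95% of genes above the signal floor lay between −0.23 and 0.28. The difference of Hspb1 stayed between 0.549 and 0.575 with probe sets averaged, without the _x_at and _s_at probe sets, with centring and with the loess trend removed. Of 40 such single-member values 39 stayed within the spread between probe sets, the exception being Hspa8 at 0.188 with probe sets averaged. Many of these values could hardly move. Centring lowered every difference by the same small amount, and averaging left members with a single probe set unchanged.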
